A study of Mus musculus with 4 samples.

Results

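Genes that make fatty acids, triglycerides and cholesterol were followed across skeletal muscle of 10-week-old mice of 4 genotypes. The 34 genes were chosen by name, as enzymes and regulators of these pathways, out of 27597 genes and named transcripts on the array, and each had at least 1 probe that was well above background on every array. They fall into 12 genes of fatty acid synthesis, 5 of triglyceride synthesis, 12 of sterol synthesis and 5 regulators of the sterol regulatory element binding proteins (SREBPs). The genotypes were ob/ob TBP-2-/-, ob/ob, TBP-2-/- and WT. TBP-2, as the labels call it, is the thioredoxin-interacting protein Txnip, known to slow the entry of glucose into cells. The ob/ob mutation disables leptin, the satiety hormone of fat tissue, and the mice grow obese. The mice had free access to food, and total RNA was hybridised to 1-colour Agilent arrays. Each genotype had 1 array, and the labels do not say whether the RNA of an array was pooled over mice, which muscle, strain or sex was used, or which part of Txnip is deleted, so no difference between a pair of arrays has a replicate check.

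Fatty acid synthesis takes place in the cytosol. ATP citrate lyase releases acetyl-CoA from citrate, acetyl-CoA carboxylase turns it into malonyl-CoA, and fatty acid synthase builds palmitate, which elongases and desaturases then modify. The acyl chains are joined to glycerol in steps that end with the diacylglycerol acyltransferases. The same acetyl-CoA feeds the mevalonate pathway to cholesterol. SREBP-1c drives the fatty acid genes and SREBP-2 mainly the sterol genes, with Scap escorting both to the Golgi and the Insig proteins holding them back. In mammals most of this synthesis occurs in liver and fat, and muscle synthesises less.

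Promoters of 5 members are shown because they stand for the patterns below. Fasn and Acly were highest on the ob/ob TBP-2-/- array, Mvk was lower on both arrays without TBP-2, Lss was lowest on the ob/ob TBP-2-/- array, and Hmgcs1 differed little. The sequences are RefSeq promoters of the GRCm38.p6 build, from 250 bases before to 50 bases after the gene start, 5′ to 3′ on the gene's strand. Capitals mark every match, on either strand, to 5 motifs. These were the sterol regulatory element TCACNCCAC, the box CCAAT bound by the factor NF-Y, the E-box CACGTG, the GC box GGGCGG bound by Sp1, and the DR4 element, a direct repeat that liver X receptors can bind.
Fasn, chr11:120824498-120824797, minus strand: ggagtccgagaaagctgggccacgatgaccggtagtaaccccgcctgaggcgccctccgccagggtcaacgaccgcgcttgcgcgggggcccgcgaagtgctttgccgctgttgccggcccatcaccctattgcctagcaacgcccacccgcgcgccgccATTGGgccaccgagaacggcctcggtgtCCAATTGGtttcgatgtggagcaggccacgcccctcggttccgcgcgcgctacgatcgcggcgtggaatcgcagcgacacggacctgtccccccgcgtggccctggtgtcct
Acly, chr11:100527951-100528250, minus strand: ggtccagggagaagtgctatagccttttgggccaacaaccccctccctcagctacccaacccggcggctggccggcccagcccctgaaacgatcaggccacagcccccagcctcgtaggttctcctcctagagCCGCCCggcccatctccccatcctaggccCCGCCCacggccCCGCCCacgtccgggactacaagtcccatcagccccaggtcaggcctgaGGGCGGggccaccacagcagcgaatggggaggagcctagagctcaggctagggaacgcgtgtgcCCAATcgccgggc
Mvk, chr5:114444019-114444318, plus strand: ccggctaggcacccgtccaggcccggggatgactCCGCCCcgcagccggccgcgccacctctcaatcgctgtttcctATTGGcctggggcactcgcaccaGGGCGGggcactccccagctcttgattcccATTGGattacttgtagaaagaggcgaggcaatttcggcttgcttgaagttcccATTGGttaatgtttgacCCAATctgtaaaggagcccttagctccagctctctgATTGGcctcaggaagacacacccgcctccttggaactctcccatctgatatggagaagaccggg
Lss, chr10:76531355-76531654, plus strand: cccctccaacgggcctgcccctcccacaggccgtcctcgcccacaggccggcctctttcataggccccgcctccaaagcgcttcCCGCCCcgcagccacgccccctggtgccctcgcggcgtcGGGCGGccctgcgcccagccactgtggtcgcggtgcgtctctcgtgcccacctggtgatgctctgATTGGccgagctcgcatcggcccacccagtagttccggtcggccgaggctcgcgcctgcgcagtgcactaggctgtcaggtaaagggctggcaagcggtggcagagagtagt
Hmgcs1, chr13:119690101-119690400, plus strand: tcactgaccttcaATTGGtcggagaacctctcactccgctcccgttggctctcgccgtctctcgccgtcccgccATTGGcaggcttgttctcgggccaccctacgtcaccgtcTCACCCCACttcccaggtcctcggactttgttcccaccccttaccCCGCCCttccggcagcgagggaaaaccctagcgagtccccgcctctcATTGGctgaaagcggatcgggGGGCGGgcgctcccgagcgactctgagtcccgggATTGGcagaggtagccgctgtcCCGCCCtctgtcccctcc

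Of the 34 members, 26 had a promoter in the table, with 36 promoters in all. TCACNCCAC was present in 1 of them, that of Hmgcs1, against 1.24% of 32851 promoters of the same length. CCAAT was present in 21 of the 36 promoters (58.3%), against 37.4% of all promoters, and GGGCGG in 22 (61.1%), against 35.7%. By gene, CCAAT stood in all 9 sterol members that had a promoter, and in 6 of 9 fatty acid members. CACGTG was present in 6 promoters (16.7%), against 7.15% of all, and the DR4 element in none, against 0.0152%. In the promoters printed above, 2 bases of Fasn belong to overlapping CCAAT matches on opposite strands, and no other matches overlap. A match is a run of letters and no evidence of binding, and the arrays do not measure binding.

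The level of a gene below is the processed signal of its brightest probe divided by the 75th percentile of that array, so a level of 1 equals the 75th percentile. Levels are compared between arrays for the same probe, never between genes. Each log2 difference carries a standard error that the scanner software's error model gives. This is technical error alone, with nothing about the spread between mice, and it lay between 0.20 and 0.25 for the members. A 1.5-fold difference (0.58 on the log2 scale) was counted, beside the share of all measured genes that differed as much. In whole muscle, a change in the number of cells of a type and a change in RNA per cell cannot be told apart.

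All 4 arrays shared 1 slide and 1 scan, and between 22674 and 24220 of 41174 probes were well above background. Txnip was at 0.634, 42.6, 2.83 and 47.2 on the ob/ob TBP-2-/-, ob/ob, TBP-2-/- and WT arrays by its brighter probe, so its transcript was low on the arrays labelled TBP-2-/-. All 6 muscle markers were well above background on every array, with summed levels of 8094, 7174, 7075 and 8132. The WT array stood apart in tendon markers, whose summed level was 52.6, 37.9, 31.5 and 6.01.

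By their brightest probes all 12 fatty acid genes had their highest level on the ob/ob TBP-2-/- array, and 11 of 12 had their lowest on the WT array. Some leads over the ob/ob array were no larger than the technical error or near it, with Fads1 at 0.05, Elovl5 at 0.13, Acacb at 0.15 and Scd2 at 0.21. Another Elovl5 probe was highest on the ob/ob array (0.975 against 0.954), and a dim Acaca probe on the TBP-2-/- array (0.0649 against 0.0493). The exception was Me1, the malic enzyme that supplies NADPH, which was lowest on the TBP-2-/- array, though its other probe was at 9.05 there and 9.03 on WT. Over the 14907 genes above background on all arrays, 29.3% were highest on the ob/ob TBP-2-/- array and 23.6% were lowest on WT. Among the sterol genes 3 of 12 were highest on the ob/ob TBP-2-/- array, and 8 of 12 were lowest on the TBP-2-/- array, where 25.8% of all genes were. This order depends on the scaling between arrays. When the arrays were scaled on their spike-in spots instead, 6 of 12 fatty acid genes were highest on the ob/ob TBP-2-/- array (Fasn, Acaca, Acly, Scd1, Elovl6 and Thrsp). The other 6 were highest on the ob/ob array, all 12 were lowest on WT, and all 12 sterol genes were highest on the ob/ob array. Spike-in scaling moves every gene alike. With it the median log2 difference of all genes was 0.64 for ob/ob muscle against WT. With TBP-2 loss on the ob/ob background that median was -0.50. The share of all genes highest or lowest on each array was not counted with this scaling, so these branch counts have no such share beside them.

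**Figure D1:**
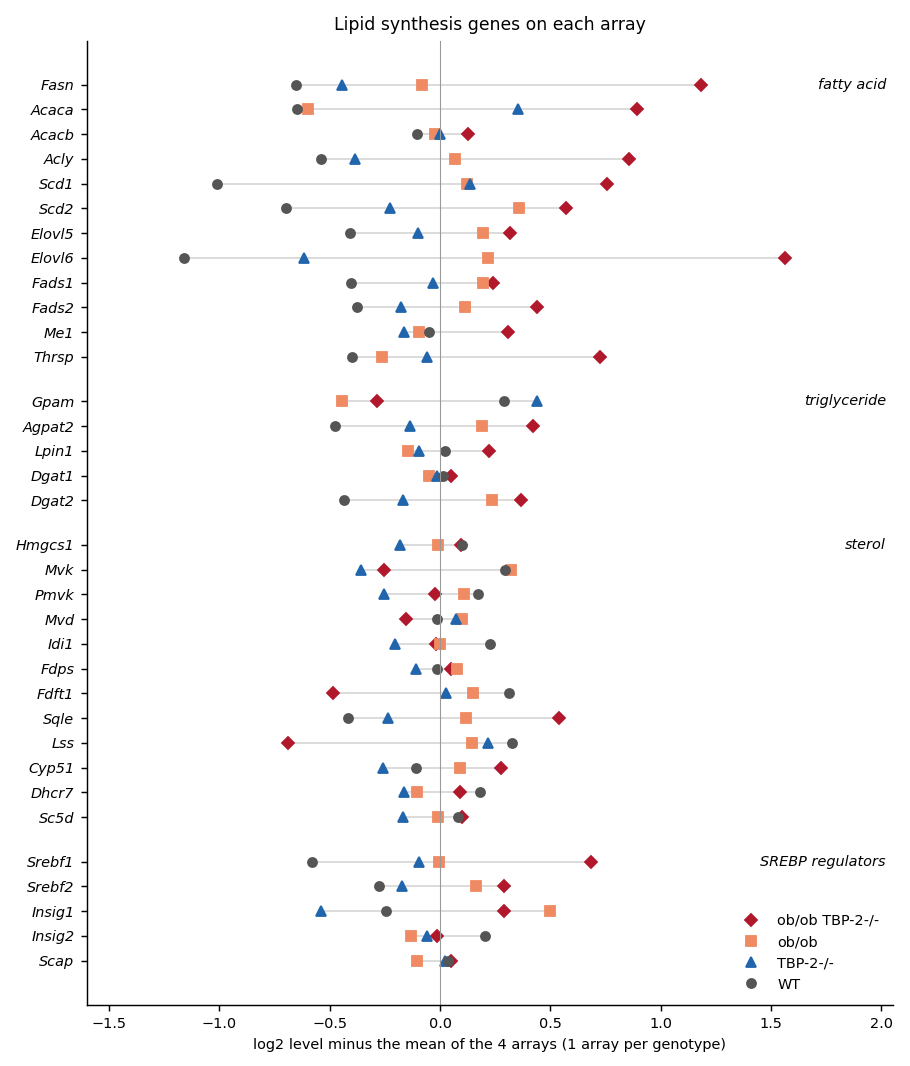
Each row is a gene, and each symbol is its log2 level on the array of 1 genotype minus the mean of the 4 arrays. All 12 fatty acid genes have the ob/ob TBP-2-/- symbol at the right with this scaling (6 of 12 under spike-in scaling), while the sterol genes spread less and in mixed order.

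Fasn encodes fatty acid synthase, which builds palmitate, and its probe lies on chromosome 11 at 120623236 to 120623295 (array annotation, mm8; which exon or UTR a probe covers was not used here). Its level was 95.9 on the ob/ob TBP-2-/- array, 39.96 on the ob/ob array, 31.1 on the TBP-2-/- array and 26.9 on the WT array. The ob/ob TBP-2-/- array stood far above the other 3. With loss of TBP-2, Fasn was 2.40-fold higher in ob/ob mice (log2 difference 1.26 ± 0.20) and 1.16-fold higher on the lean background (0.21 ± 0.20). The ob/ob genotype went with 3.08-fold more Fasn transcript without TBP-2 (1.62 ± 0.20) and 1.49-fold more with it (0.57 ± 0.20). Another Fasn probe gave log2 differences of 1.54 and 2.38 in the 2 comparisons that hold the ob/ob TBP-2-/- array, and -0.07 for TBP-2-/- minus WT.

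Acaca, the cytosolic acetyl-CoA carboxylase that makes malonyl-CoA, differed more with TBP-2 than with leptin by its brightest probe. Its level was 0.925 on the ob/ob TBP-2-/- array, 0.329 on the ob/ob array, 0.637 on the TBP-2-/- array and 0.318 on the WT array (chromosome 11, 84217052 to 84217111). Both arrays without TBP-2 lay above both arrays with it. The difference was 2.81-fold on the ob/ob background (1.49 ± 0.21) and 2.01-fold on the lean background (1.004 ± 0.21), and these comparisons share no array. Acaca differed by 0.05 ± 0.21 between ob/ob and WT muscle, and by 0.54 ± 0.21 between ob/ob TBP-2-/- and TBP-2-/- muscle. Its other 3 probes were dim, and they varied. With TBP-2 loss on the ob/ob background they gave log2 differences of 0.35 and 0.47 for those measured on both arrays. Between ob/ob TBP-2-/- and TBP-2-/- muscle they gave 0.67, -0.40 and 0.23, so 1 of them differed more with leptin. Acacb, the carboxylase at the mitochondrial surface whose malonyl-CoA restrains fatty acid oxidation, stayed between 77.1 and 65.7 on the 4 arrays, and its log2 differences were 0.15 or less in all 4 comparisons.

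Acly, which releases acetyl-CoA from citrate, resembled Fasn. Its level was 1.43 on the ob/ob TBP-2-/- array, 0.826 on the ob/ob array, 0.603 on the TBP-2-/- array and 0.543 on the WT array (chromosome 11, 100293293 to 100293351). It was 1.73-fold higher with TBP-2 loss on the ob/ob background (0.79 ± 0.20) and 1.11-fold higher on the lean background (0.15 ± 0.21). Thrsp encodes Spot 14, a protein of lipid-making tissues that follows thyroid hormone and carbohydrate. Its levels were 10.2 in ob/ob TBP-2-/-, 5.14 in ob/ob, 5.93 in TBP-2-/- and 4.68 in WT muscle. The ob/ob TBP-2-/- array stood apart from the other 3, with a 1.99-fold difference to ob/ob (0.99 ± 0.20). Me1 was at 24.5, 18.5, 17.7 and 19.1 on the same arrays, and it reached 1.5-fold in none of the 4 comparisons.

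Elovl6, the elongase that turns palmitate into stearate, differed most among the members. Its level was 1.93 on the ob/ob TBP-2-/- array, 0.760 on the ob/ob array, 0.426 on the TBP-2-/- array and 0.292 on the WT array (chromosome 3, 129630352 to 129630411). The levels fell in that order, with each neighbour apart by more than the technical error. TBP-2 loss went with 2.54-fold more Elovl6 transcript on the ob/ob background (1.34 ± 0.21) and 1.46-fold more on the lean background (0.54 ± 0.21). The ob/ob genotype went with 4.53-fold more without TBP-2 (2.18 ± 0.21) and 2.60-fold more with it (1.38 ± 0.21). Elovl5, an elongase of polyunsaturated chains, had levels of 2.73, 2.50, 2.04 and 1.65 on the same arrays, with a 1.52-fold difference between ob/ob and WT muscle.

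Scd1 and Scd2 encode stearoyl-CoA desaturases, which place a double bond in stearate and palmitate. Scd1 was at 38.6 in ob/ob TBP-2-/-, 24.9 in ob/ob, 25.1 in TBP-2-/- and 11.4 in WT muscle (chromosome 19, 44448208 to 44448267). The ob/ob and TBP-2-/- arrays were alike, and each lay between the other two. Scd1 was 2.21-fold higher in TBP-2-/- than in WT muscle (1.14 ± 0.20) and 1.55-fold higher in ob/ob TBP-2-/- than in ob/ob muscle (0.63 ± 0.20). Scd2 was at 8.61, 7.43, 4.96 and 3.58 on the arrays in the same order. Here the 2 ob/ob arrays lay above the 2 lean ones, with differences of 2.08-fold in the presence of TBP-2 (1.05 ± 0.20) and 1.73-fold in its absence (0.79 ± 0.20). Whether a probe of either gene also binds the transcript of the other was not tested. Fads1 and Fads2, the desaturases that introduce double bonds into polyunsaturated fatty acids, were both highest in ob/ob TBP-2-/- and lowest in WT muscle. Fads1 was at 0.469, 0.455, 0.389 and 0.3001, and Fads2 at 0.354, 0.283, 0.231 and 0.201, from ob/ob TBP-2-/- through ob/ob and TBP-2-/- to WT. Fads1 reached 1.5-fold only in ob/ob minus WT (0.60 ± 0.21) and Fads2 only in ob/ob TBP-2-/- minus TBP-2-/- (0.62 ± 0.21).

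**Figure D2:**
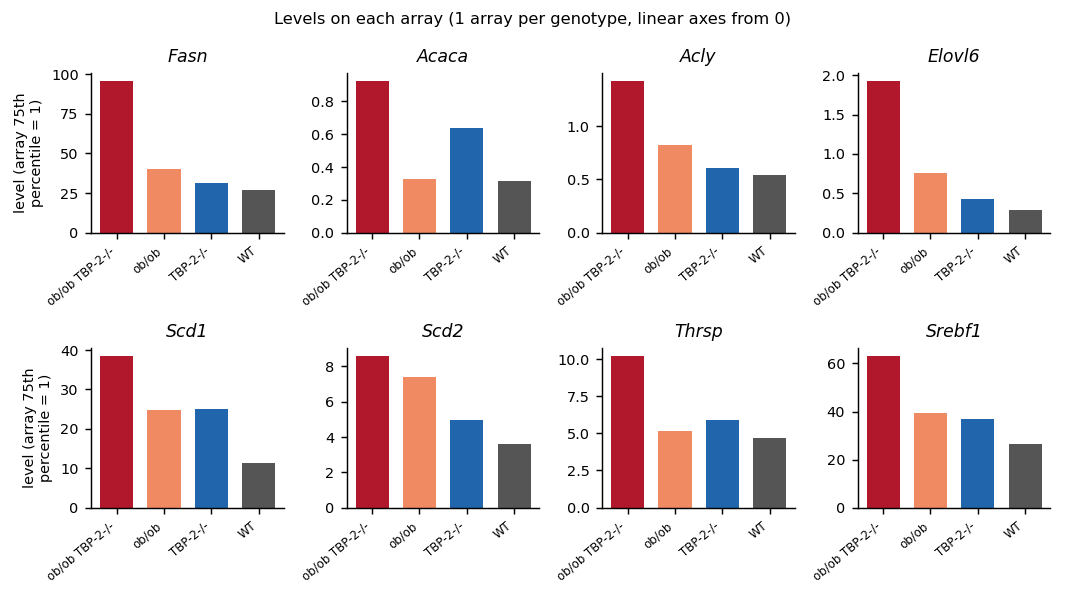
Bars show the level of 8 genes on the array of each genotype, on linear axes that start at 0, where 1 is the 75th percentile of the array. There is 1 array per genotype and no error bar; the ob/ob TBP-2-/- bar is the tallest in all 8 panels, and Acaca is the gene whose TBP-2-/- bar stands well above its ob/ob bar.

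Of the regulators, the SREBP genes themselves were highest on the ob/ob TBP-2-/- array, though Srebf2 was highest on the ob/ob array under spike-in scaling. Srebf1, the gene of SREBP-1, had levels of 63.2 in ob/ob TBP-2-/-, 39.3 in ob/ob, 36.8 in TBP-2-/- and 26.4 in WT muscle (chromosome 11, 60015907 to 60015966). The ob/ob and TBP-2-/- arrays again lay close together, with WT below and ob/ob TBP-2-/- above. With TBP-2 loss Srebf1 was 1.61-fold higher in ob/ob mice (0.68 ± 0.20) and 1.40-fold higher on the lean background (0.48 ± 0.20). Which transcripts of the gene its probe covers was not examined. Srebf2, the gene of SREBP-2, was at 6.002, 5.49, 4.35 and 4.04 in the same order with a 1.36-fold difference between ob/ob and WT muscle (0.44 ± 0.20). Insig1, which retains SREBPs in the endoplasmic reticulum and is itself an SREBP target, was at 0.230 and 0.266 on the 2 ob/ob arrays without and with TBP-2, and at 0.130 and 0.159 on the lean arrays without and with it. By this probe it was 1.67-fold higher with ob/ob in the presence of TBP-2 (0.74 ± 0.22) and 1.78-fold higher in its absence (0.83 ± 0.22), whereas its other, dimmer probe gave 0.09 and 1.17. With TBP-2 loss on the lean background this probe gave -0.29 ± 0.23 and the dimmer one -0.95 ± 0.36. On the ob/ob background they gave -0.21 and 0.13. Insig2 and Scap reached 1.5-fold in none of the comparisons, with log2 differences between -0.34 and 0.16.

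In triglyceride synthesis 3 of 5 genes differed by 1.5-fold or more between ob/ob and WT muscle, Agpat2 and Dgat2 upward (6.20% of all genes were) and Gpam downward (6.80% were). Between ob/ob TBP-2-/- and TBP-2-/- muscle Gpam alone of the 5 did so, with Agpat2 at 1.47-fold and Dgat2 at 1.45-fold. Gpam, the mitochondrial enzyme that adds the leading acyl chain to glycerol 3-phosphate, was at 0.426 in ob/ob TBP-2-/-, 0.382 in ob/ob, 0.703 in TBP-2-/- and 0.634 in WT muscle (chromosome 19, 55124163 to 55124222). Both ob/ob arrays lay below both lean arrays, with differences of 1.66-fold (-0.73 ± 0.21) with TBP-2 and 1.65-fold (-0.72 ± 0.21) without it. In the presence of TBP-2 the Gpam difference was -0.05 under spike-in scaling and -0.55 under normexp, a model-based background correction. Agpat2, the acyltransferase that makes phosphatidic acid, was at 0.856, 0.729, 0.582 and 0.460 on the arrays in the same order, with a 1.59-fold difference between ob/ob and WT muscle (0.66 ± 0.21). Dgat2, which completes the triglyceride from newly made fatty acids, was at 36.04, 33.0, 24.9 and 20.7, and ob/ob muscle was 1.59-fold above WT (0.67 ± 0.20). Its other 2 probes gave 0.49 and 0.61 for the same comparison. Dgat1, the other diacylglycerol acyltransferase, stayed between 0.717 and 0.769, and Lpin1, the phosphatidate phosphatase of muscle, between 38.6 and 49.8. Neither reached 1.5-fold in any comparison. With TBP-2 loss no triglyceride member reached 1.5-fold on either background.

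In sterol synthesis few genes differed, and those that differed with TBP-2 loss were lower. Mvk, mevalonate kinase, was at 0.479 on the ob/ob TBP-2-/- array, 0.713 on the ob/ob array, 0.445 on the TBP-2-/- array and 0.700 on the WT array (chromosome 5, 114716983 to 114719930). Both arrays without TBP-2 lay below both arrays with it, by 1.49-fold on the ob/ob background (-0.57 ± 0.21) and 1.57-fold on the lean background (-0.65 ± 0.21). The other Mvk probe gave -0.25 and -0.58. Fdft1, squalene synthase, was at 4.74 on the ob/ob TBP-2-/- array, 7.35 on the ob/ob array, 6.75 on the TBP-2-/- array and 8.23 on the WT array (chromosome 14, 62101042 to 62105282). It was lowest on the ob/ob TBP-2-/- array, 1.55-fold below ob/ob (-0.63 ± 0.20), and its other probe gave -0.55.

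Lss, lanosterol synthase, which closes the sterol rings, was at 0.354 on the ob/ob TBP-2-/- array, 0.629 on the ob/ob array, 0.663 on the TBP-2-/- array and 0.715 on the WT array (chromosome 10, 75994380 to 75994439). The ob/ob TBP-2-/- array was 1.78-fold below ob/ob (-0.83 ± 0.21) and 1.87-fold below TBP-2-/- (-0.91 ± 0.21), and the other 3 arrays lay close together. A further probe in the same RefSeq transcript gave -0.899 and -0.61 in these comparisons, but a probe for a cDNA clone of Lss gave 0.21 and 1.08, in the opposite direction. Sqle, squalene epoxidase, had its highest level where Lss had its lowest, with 0.556 in ob/ob TBP-2-/-, 0.415 in ob/ob, 0.325 in TBP-2-/- and 0.287 in WT muscle. It was 1.71-fold higher in ob/ob TBP-2-/- than in TBP-2-/- muscle (0.77 ± 0.21).

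The other 8 sterol members reached 1.5-fold in no comparison by their brightest probe. They were Hmgcs1, which makes the precursor of mevalonate, Pmvk, Mvd and Idi1 of the mevalonate pathway, Fdps, which makes farnesyl diphosphate, and Cyp51, Sc5d and Dhcr7, which act on the ring after lanosterol. Hmgcs1 was at 10.9, 10.2, 9.05 and 10.98 on the ob/ob TBP-2-/-, ob/ob, TBP-2-/- and WT arrays. Cyp51 came nearest to the threshold, 1.45-fold higher in ob/ob TBP-2-/- than in TBP-2-/- muscle (0.54 ± 0.24). In that comparison a dimmer Cyp51 probe went in the opposite direction, 2.13-fold lower (-1.09 ± 0.30), and the remaining probe gave 0.17. Pmvk and Fdps lie 7.09 and 7.46 Mb from the Txnip probes on chromosome 3 (mm8), and Pmvk differed by -0.42 ± 0.20 between TBP-2-/- and WT muscle. The array annotation places both Idi1 probes on chromosome 2, whereas the RefSeq table has the gene on chromosome 13, so which copy they bind was not resolved.

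**Figure D3:**
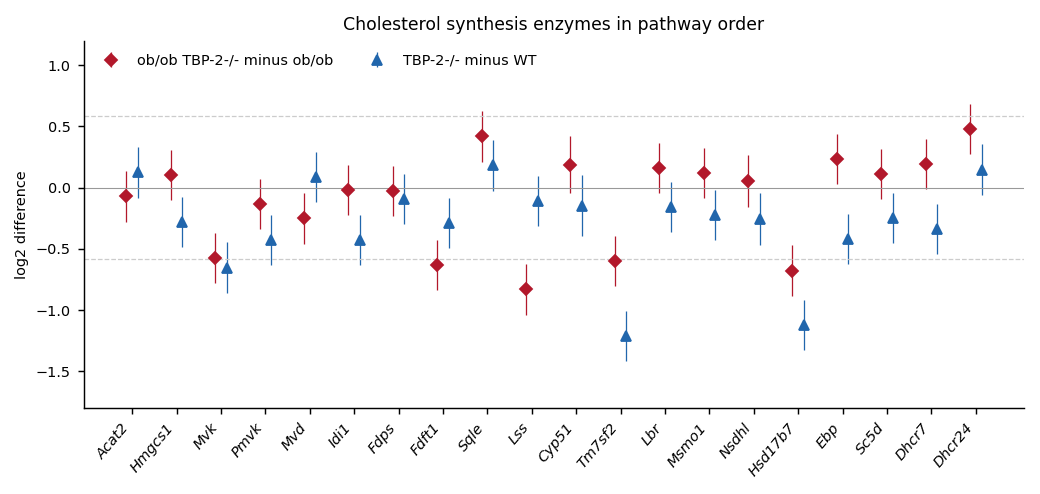
Log2 differences with TBP-2 loss (vertical axis) for cholesterol synthesis enzymes in pathway order, on the ob/ob background (diamonds) and the lean background (triangles); bars are standard errors of the scanner's error model and dashed lines mark 1.5-fold. Most enzymes lie between the dashed lines, and Mvk, Fdft1, Lss, Tm7sf2 and Hsd17b7 lie at or below the lower one in at least 1 comparison.

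Counted by comparison, loss of TBP-2 on the ob/ob background (ob/ob TBP-2-/- minus ob/ob) went with 7 of 34 members higher by 1.5-fold or more, where 6.62% of 15460 genes were, and with 2 of 34 lower (Fdft1 and Lss), where 3.53% were. The 7 were Fasn, Acaca, Acly, Scd1, Elovl6, Thrsp and Srebf1, so 6 of 12 fatty acid genes were among them and no triglyceride or sterol gene. At 2-fold or more, Fasn, Acaca and Elovl6 were higher, where 1.91% of genes were, and no member was lower, where 0.809% were. The fatty acid median was 0.48 above the median of all genes, the triglyceride median 0.12 above it and the sterol median 0.06 below it (-0.06). Fasn and Elovl6 among the higher genes and Fdft1 among the lower passed 1.5-fold under spike-in scaling, quantile normalization, normexp and the median of probes. For Elovl6, which has 1 probe, the median of probes is that probe again. The other 3 of the 7 alternatives of processing leave a member's difference nearly as it is. Every member was above background on every array, so the filters keep its values, and the deposited table follows the same signals. Under spike-in scaling, which moved all genes by -0.54 here, 3 members were higher and 6 lower by 1.5-fold or more. With it Acly, Scd1, Thrsp and Srebf1 were at 0.24, 0.09, 0.45 and 0.14, Acaca was at 0.47 by the median of its probes, and Lss was at -0.49 under normexp.

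On the lean background (TBP-2-/- minus WT), 2 of 34 members were higher by 1.5-fold or more, Acaca and Scd1, where 5.91% of 15220 genes were, and 1 was lower, Mvk, where 3.29% were. These shares, 5.88% and 2.94%, were near those of all genes. Acaca and Scd1 also reached 2-fold, where 1.73% of genes were higher by as much and 0.880% lower. With spike-in scaling 6 members were 1.5-fold higher and 0 lower. Without regard to size, 11 of 12 fatty acid genes had a difference above 0 and 10 of 12 sterol genes had one below 0 (12 and 7 under spike-in scaling), with medians of 0.40 and -0.19 relative to all genes. The median of all genes was itself -0.07 (0.15 under spike-in scaling). Of the sterol genes below 0, Fdps (-0.09) and Lss (-0.11) lay near -0.07. The shares of all genes above and below 0 were not counted. Acaca and Scd1 passed under spike-in scaling, quantile normalization and normexp, while Mvk was at -0.42 with spike-in scaling and -0.46 with normexp. For Acaca and Scd1 the other alternatives used the same probe at nearly the same values. Scd1 has 1 probe, and the dimmer Acaca probes were not above background on WT, so the median of probes could not differ. Over both backgrounds, Acaca and Scd1 were the members 1.5-fold or more higher (1.73% of 14907 genes were), and no member was 1.5-fold lower on both (0.698% were), since Mvk reached -0.57 on the ob/ob background.

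**Figure D4:**
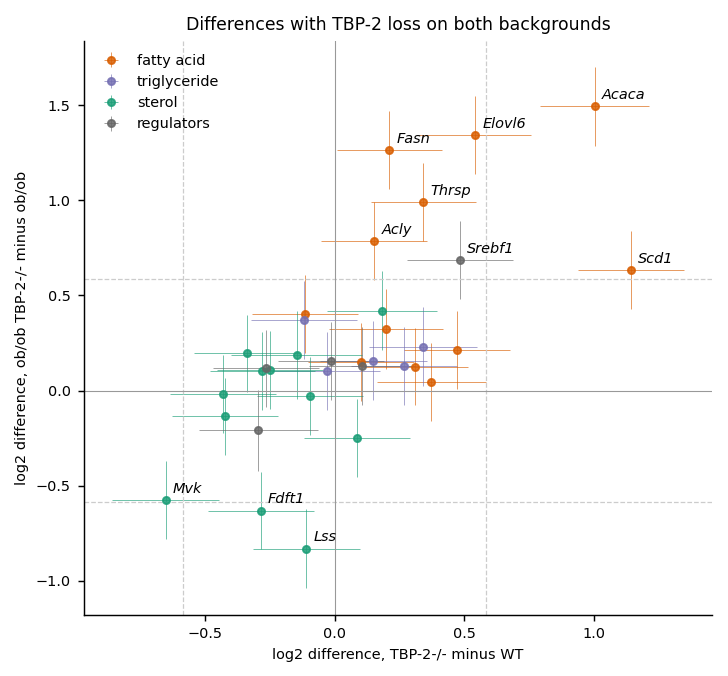
Each point is 1 of the 34 genes, with its log2 difference for TBP-2-/- minus WT on the horizontal axis and for ob/ob TBP-2-/- minus ob/ob on the vertical axis, comparisons that share no array; bars are standard errors of the scanner's error model and dashed lines mark 1.5-fold. Acaca and Scd1 lie beyond 1.5-fold on both axes, and Fasn, Elovl6, Thrsp, Acly and Srebf1 on the vertical axis alone.

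The difference with TBP-2 loss was larger on the ob/ob than on the lean background by 1.5-fold or more for 4 members, Fasn (by 1.05 ± 0.29), Elovl6 (0.80 ± 0.30), Thrsp (0.65 ± 0.29) and Acly (0.63 ± 0.29), where 8.19% of genes were. It was more negative for Lss (-0.72 ± 0.29), where 6.37% of genes were. All 4 arrays enter this difference, so it leaves no degree of freedom for a test.

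With TBP-2 present, the ob/ob genotype (ob/ob minus WT) went with 9 of 34 members higher by 1.5-fold or more, where 6.20% of 15087 genes were, and with Gpam lower, where 6.80% were. The 9 were Acly, Scd1, Scd2, Elovl5, Elovl6, Fads1, Agpat2, Dgat2 and Insig1, with Srebf1 (0.58) and Fasn (0.57) just under the threshold. At 2-fold Scd1, Scd2 and Elovl6 were higher, where 1.88% of genes were, and no member was lower, where 1.74% were. Spike-in scaling, which moved all genes by 0.68 here, gave 25 members higher and 0 lower. In the absence of TBP-2 (ob/ob TBP-2-/- minus TBP-2-/-), 10 of 34 were higher, where 6.39% of 15617 genes were, and Gpam and Lss were lower, where 4.91% were. The 10 were Fasn, Acly, Scd1, Scd2, Elovl6, Fads2, Thrsp, Sqle, Srebf1 and Insig1. Fasn, Acly and Elovl6 reached 2-fold, where 1.79% of genes were higher by as much, and no member was lower, where 1.57% were. The 2 ob/ob comparisons share no array, and Acly, Scd1, Scd2, Elovl6 and Insig1 were higher in both (1.97% of genes were) and Gpam lower in both (1.83% were). Each shares its arrays with the TBP-2 comparisons.

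Fatty acid medians were 0.63 above all genes with TBP-2 and 0.57 above them without it, against -0.03 and 0.16 for the sterol genes and -0.02 and 0.27 for the triglyceride genes. With TBP-2, Scd1, Scd2, Elovl6 and Dgat2 passed 1.5-fold under spike-in scaling, quantile normalization and normexp, and Dgat2 also by the median of its probes. The first of these genes have 1 probe each, and the remaining alternatives leave member values nearly as they are. Normexp brought Acly, Elovl5, Fads1, Agpat2 and Insig1 to between 0.30 and 0.56. Without TBP-2, Fasn, Acly, Scd2, Elovl6, Thrsp and Srebf1 passed under spike-in scaling, quantile normalization and normexp. The median of probes was a further check for Fasn alone, since the others had no further probe above background. Normexp brought Scd1, Fads2, Sqle and Insig1 to between 0.38 and 0.58 and Gpam and Lss to -0.48 and -0.53.

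Both genotypes were also fitted together as additive terms over the 4 arrays with limma, which leaves 1 residual degree of freedom and is the one test available here. None of the 34 members passed an adjusted p of 0.05 for either genotype, where 0.0931% of 16114 genes did for TBP-2 and 0.217% for ob/ob. The smallest adjusted p was that of Elovl6 for ob/ob (0.109, fitted log2 difference 1.78 ± 0.25) and, for TBP-2, that of Acaca (0.209, 1.25 ± 0.20). At an unadjusted p under 0.05, 6 members stood out for TBP-2, with Acaca, Scd1, Elovl6, Thrsp and Srebf1 higher and Mvk lower, where 9.74% of genes did. For ob/ob there were 14, with 13 higher and Gpam lower, where 13.5% of genes did. With normexp the fit called 6 members for TBP-2 and 7 for ob/ob, with 470 and 794 of all genes. In that fit the estimated prior degrees of freedom were infinite, so every gene was given the same error. The error of the fit is how far these arrays depart from 2 additive genotype effects, which is not the spread between mice.

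Adipocytes make fatty acids and triglycerides, so their markers are given beside the fatty acid genes. Of 12 adipocyte markers, 11 were well above background on all arrays, and Adig was so on the TBP-2-/- array alone. Their summed level was 367 on the ob/ob TBP-2-/- array, 259 on the ob/ob array, 398 on the TBP-2-/- array and 307 on the WT array. Most of each sum came from the bright probes of Fabp4, Plin4 and Cfd, so it says little about the other markers. Fabp4 and Plin4 were at 193 and 105 on the ob/ob TBP-2-/- array, and Cfd ran from 5.27 on the ob/ob array to 112 on the TBP-2-/- array. With TBP-2 loss on the ob/ob background 7 of 11 were 1.5-fold or more higher, where 6.62% of all genes were. Among them were Adipoq (adiponectin, 2.66-fold), the lipid droplet gene Plin1 (2.47-fold) and Cidec (2.46-fold), beside 2.40-fold for Fasn and 2.54-fold for Elovl6. On the lean background 7 of 11 were higher as well, where 5.91% of all genes were. There Adipoq was at 2.47-fold, Plin1 at 1.65-fold and Cidec at 1.75-fold, beside 2.21-fold for Scd1, 2.01-fold for Acaca, 1.46-fold for Elovl6, 1.16-fold for Fasn and 1.11-fold for Acly. With TBP-2 loss 10 of 11 were above 0 on each background, while Plin4 was below 0 on both (-0.15 in ob/ob and -0.41 in lean mice). Between ob/ob and WT muscle 3 were 1.5-fold higher (Adipoq, Lep and Cidec) and 3 lower (Cfd, Retn and Cidea), where 6.20% and 6.80% of all genes were. Between ob/ob TBP-2-/- and TBP-2-/- muscle 5 were higher (Adipoq, Lep, Plin1, Cidec and Plin4) and 2 lower (Cfd and Cidea), where 6.39% and 4.91% of all genes were. Lep is the leptin gene, which the ob/ob mutation disables, so its 6.14-fold and 6.09-fold differences there do not serve as an adipocyte marker. All 5 Schwann cell markers were well above background on every array, with summed levels of 9.17, 5.11, 8.77 and 3.31 on the ob/ob TBP-2-/-, ob/ob, TBP-2-/- and WT arrays. All 6 macrophage markers were higher with TBP-2 loss on both backgrounds, with medians of 0.39 in ob/ob and 0.61 in lean mice and 2 and 3 of them at 1.5-fold or more. All 5 fibroblast markers were higher as well, with medians of 0.43 and 0.34, and the collagen gene Col1a1 differed 2.01-fold and 2.77-fold. Spike-in scaling moves all genes by -0.54 with TBP-2 loss on the ob/ob background, which is more than the macrophage and fibroblast medians there. Marker counts were not repeated with that scaling, and the shares of all genes above 0 were not counted. The part of fat or other cells in the differences of the fatty acid genes was not tested.

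**Figure D5:**
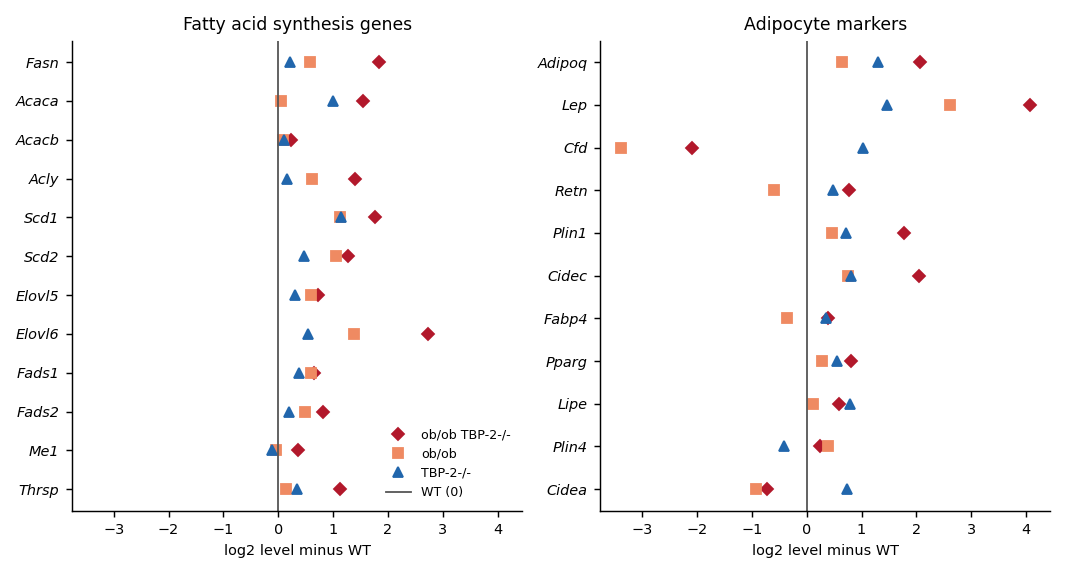
Log2 level minus the WT level for the 12 fatty acid synthesis genes (left) and the 11 adipocyte markers measured on all arrays (right), with 1 symbol per genotype and WT at 0. Adipoq, Lep, Retn, Plin1, Cidec, Fabp4 and Pparg have the ob/ob TBP-2-/- symbol furthest right, as the fatty acid genes do. Cfd, Lipe and Cidea are highest on the TBP-2-/- array and Plin4 on the ob/ob array. On the ob/ob array Cfd, Retn, Fabp4 and Cidea lie below WT.

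Further genes of the same pathways, 59 in all, were looked at in the same way, but their counts were not repeated with spike-in scaling. With TBP-2 loss on the ob/ob background, 11 of 52 measured were 1.5-fold or more higher and 3 lower, where 6.62% and 3.53% of all genes were. On the lean background 7 of 50 were higher and 3 lower, where 5.91% and 3.29% of all genes were. For ob/ob minus WT, 3 of 50 were higher and 1 lower (6.20% and 6.80% of all genes), and for ob/ob TBP-2-/- minus TBP-2-/-, 9 of 53 were higher and 2 lower (6.39% and 4.91%). Among fatty acid genes, Aacs, which activates acetoacetate for lipid synthesis, was at 18.8 in ob/ob TBP-2-/-, 1.87 in ob/ob, 12.02 in TBP-2-/- and 2.07 in WT muscle. Both arrays without TBP-2 lay above both with it. Mid1ip1, a relative of Thrsp that promotes assembly of acetyl-CoA carboxylase, was at 35.0, 17.3, 29.03 and 15.4 on the arrays in the same order, and so separated in the same way. Fads3, of the desaturase family, was 2.01-fold higher in ob/ob TBP-2-/- than in ob/ob muscle, and Pnpla3, a lipid droplet protein gene, 2.08-fold higher. Between ob/ob TBP-2-/- and TBP-2-/- muscle the differences were 2.11-fold for Fads3 and 3.58-fold for Pnpla3, both upward.

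In the triglyceride list Mogat2, a monoacylglycerol acyltransferase, was at 0.241 in ob/ob TBP-2-/- and 0.0445 in ob/ob muscle, 5.41-fold higher, and was not well above background on the lean arrays. Cds1, which makes CDP-diacylglycerol, was at 0.286 in ob/ob TBP-2-/- and 0.0444 in TBP-2-/- muscle, 6.44-fold higher. It was not well above background on the ob/ob and WT arrays, so with TBP-2 loss it was at least 8.14-fold higher on the ob/ob background. A floor of this kind is the larger of the probe's own signal and the dimmest detected signal on the array. In the sterol list the 2 genes that were 2-fold different with TBP-2 loss were both lower. Tm7sf2, a sterol reductase acting after lanosterol, was at 1.24 in ob/ob TBP-2-/-, 1.88 in ob/ob, 1.14 in TBP-2-/- and 2.63 in WT muscle. Hsd17b7, which reduces the 3-keto group during sterol demethylation, was at 0.350, 0.560, 0.347 and 0.753 on the same arrays. For both genes the arrays without TBP-2 lay below those with it, by 1.52-fold and 1.60-fold on the ob/ob background and by 2.32-fold and 2.17-fold on the lean background. Abcg1, a cholesterol exporter, differed 2.31-fold between ob/ob and WT muscle and lay between 0.317 and 0.398 on the 3 mutant arrays, against 0.172 on WT.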

How the data were processed

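Total RNA of skeletal muscle from 10-week-old mice was labelled with Cy3 and hybridised to 1-colour Agilent mouse arrays, with 1 array per genotype. The intensity of each spot comes from Agilent Feature Extraction 9.5.3.1, per the file headers. Background and spatial trend were removed array by array, per the file headers, with no scaling between arrays. The authors also deposited a table of log2 values with the median of every probe set to 0 over the 4 arrays, and column medians of 0.01, -0.01, -0.06 and 0.09 for ob/ob TBP-2-/-, ob/ob, TBP-2-/- and WT. Its differences follow those of the scanner signals scaled at the 75th percentile, with a slope of 1.000. Its handling of outlier spots is unknown here.

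Control spots were dropped. The 75th percentile of the remaining 41174 probes (signals of 261 for ob/ob TBP-2-/-, 309 for ob/ob, 306 for TBP-2-/- and 280 for WT) was then set to 1 on every array. Spots marked as outliers (110, 59, 62 and 78) were left out, and replicate spots of a probe were averaged. No spot was saturated. The number of arrays limits the precision. Probes were named through RefSeq accessions of GRCm38.p6 (24375 probes), current symbols (6301) and older synonyms (2426), while 8072 kept the array's own name. This gave 68 probes for the 34 members, among them Mod1, the older name of Me1. The probe with the highest mean level stood for a gene. Pairwise differences were taken where a gene was well above background in each array of the pair and carry no p-value. The additive fit used limma 3.58.1 in R 4.3.3 (lmFit and eBayes, Benjamini-Hochberg over 16114 genes above background on at least 2 arrays, 3.664 prior degrees of freedom) and was tested on simulated data. The alternatives were spike-in scaling, quantile normalization, normexp with an offset of 50, the median of a gene's probes, no filter on background, a filter on all 4 arrays and the authors' deposited table.

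Members that differ 1.5-fold or more in any comparison are given with all 4 levels, the others by range with examples, and genes of the further pathway lists are named where they differ 2-fold. Genes just below a threshold were named with their values known. Some items are not reported here. The members, branches and lists were chosen with earlier results of these data known.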

Additional observations from a re-analysis of the deposited data

Results flagged for a closer look

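The second and later probes of a gene do not enter the main counts above. Of them, 5, in 3 member genes, were well above background on a mutant array but not on WT and lay at least 1.5-fold above it. A probe of Fdps was also above background on the TBP-2-/- array and not on WT, but its bound there was 1.02-fold. For Acaca, a probe was at least 1.90-fold above WT on the ob/ob TBP-2-/- array, another at least 1.74-fold on the same array, and another at least 1.61-fold on the TBP-2-/- array. A Cyp51 probe was at least 2.75-fold above WT on the TBP-2-/- array, where the gene's brightest probe was at 0.103, against 0.114 on WT. A probe for a cDNA clone of Hmgcs1 was at least 1.55-fold above WT on the ob/ob TBP-2-/- array and not well above background on the other 3. For each bound the WT side was set to the probe's measured value or to the detection floor of that array, whichever was larger. No member differed by 1.5-fold or more in opposite directions with TBP-2 loss on the 2 backgrounds, or with ob/ob in the presence and absence of TBP-2.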

How the results depend on the processing

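No paired analysis was possible because each genotype has 1 array and the labels carry no replicate numbers. For the same reason no array could be left out. Spike-in scaling shifted all genes by 0.23 in TBP-2-/- minus WT, 0.68 in ob/ob minus WT, -0.54 in ob/ob TBP-2-/- minus ob/ob and -0.09 in ob/ob TBP-2-/- minus TBP-2-/-. With it, the counts of members 1.5-fold or more higher and lower became 6 and 0 in TBP-2-/- minus WT, against 2 and 1, and 3 and 6 in ob/ob TBP-2-/- minus ob/ob, against 7 and 2. They became 25 and 0 in ob/ob minus WT, against 9 and 1. Normexp gave 0 lower in TBP-2-/- minus WT, 1 lower in ob/ob TBP-2-/- minus ob/ob, 5 higher and 0 lower in ob/ob minus WT, and 6 higher and 0 lower in ob/ob TBP-2-/- minus TBP-2-/-, against 10 and 2. The median of a gene's probes gave 2 lower in TBP-2-/- minus WT. A 2-fold threshold left 0 lower in each comparison, and 3 higher in each but TBP-2-/- minus WT, where it left 2. In the additive fit, against 0 members called for either genotype, normexp called 6 for TBP-2 and 7 for ob/ob, spike-in scaling called 1 for ob/ob, and restriction to genes above background on all 4 arrays called 1 for ob/ob, in each of the last cases Elovl6. Without adjustment 6 and 14 members had p under 0.05. The prior degrees of freedom of the fit were infinite with normexp and with spike-in scaling, against 3.664 in the main fit, so every gene had the same error there. The cause of the other moves was not tested, beyond the stricter threshold. Taken relative to all genes, the 12 branch medians of the fatty acid, triglyceride and sterol genes moved by less than the technical error of a gene in the alternatives other than spike-in scaling, which shifts all genes alike and so cannot move them. Of the 34 member differences of 1.5-fold or more, none changed sign under any alternative, and the number still at 1.5-fold was 19 with normexp, 26 with spike-in scaling, 29 with quantile normalization, 32 with the median of probes and 34 with the other 3 alternatives. Those 3, the 2 filters on background and the deposited table, leave member values nearly as they are, so they were no check on a single difference. The median of probes was none for a gene with 1 measured probe.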

Other observations

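The following genes of the further fatty acid list were picked after their values were seen. Elovl1, an elongase of very long chains, was at 4.32 in ob/ob TBP-2-/-, 2.20 in ob/ob, 3.35 in TBP-2-/- and 1.77 in WT muscle, 1.96-fold and 1.89-fold higher without TBP-2 on the ob/ob and lean backgrounds. Tecr, the reductase that completes each elongation round, was 1.63-fold and 1.54-fold higher, and Hacd2, a dehydratase of the same cycle, 1.56-fold and 1.62-fold higher. Other genes of the cycle did not share this. Hacd1, another dehydratase, differed by 0.53 (log2) with TBP-2 loss in ob/ob mice and by -0.30 in lean mice, Hacd3 by 0.03 and 0.06, and the ketoacyl reductase gene Hsd17b12 by 0.22 and 0.30. Spike-in scaling moves all genes by -0.54 with TBP-2 loss on the ob/ob background, where Elovl1, Tecr and Hacd2 were at 0.97, 0.70 and 0.64 without it.

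Mlycd, which degrades malonyl-CoA, was at 37.8 in ob/ob TBP-2-/-, 58.4 in ob/ob, 75.4 in TBP-2-/- and 71.1 in WT muscle, lowest on the ob/ob TBP-2-/- array. Nr1h3, the liver X receptor alpha gene, was at 3.09, 4.39, 3.14 and 4.92 on the same arrays, lower on both arrays without TBP-2, whereas Nr1h2, the beta gene, differed by -0.14 in ob/ob and -0.09 in lean mice with TBP-2 loss. With 1 array per genotype these are values of these arrays, and none was tested.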
